A study of Mus musculus with 3 samples.

Results

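miR-183-5p, miR-96-5p and miR-182-5p are the guide arms of 3 neighbouring microRNA hairpins, and their read counts were compared in small-RNA libraries of B16 melanoma cells, of the exosomes these cells release, and of the exosomes of JB6 cells. The members were chosen by name, as the 3 entries that carry these names among 1915 mature mouse miRNAs in each file. Exosomes are membrane vesicles that cells release, and these were pelleted from the cultures by ultracentrifugation. B16 exosomes and B16 cells came from a mouse skin melanoma line labelled as strain C57BL/6J, and JB6 exosomes came from skin cells whose labels give a normal state and the strain BALB/c. No treatment is named in the labels, and a library of JB6 cells was not analysed here. Line, strain and disease state therefore cannot be told apart when the JB6 exosomes are set against either B16 library. Against B16 cells, the difference between vesicles and whole cells cannot be told apart from these either. With 1 library in each group, none of the differences could be checked against replicates.

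The 3 hairpins are read from a shared precursor transcript, and the cluster is best known from sensory organs, where it is abundant in photoreceptors, in hair cells of the inner ear and in sensory neurons. Mutations in the seed of miR-96 cause progressive hearing loss in mice and in people. A miRNA recognises its target mRNAs mainly through its seed, the bases near its 5′ end, and the cluster members have closely similar seeds. miR-182 and its partners are also abundant in several epithelial tumours, and in human melanoma miR-182 has been linked to metastasis through repression of FOXO3 and of MITF, the master regulator of melanocytes.

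The mature sequences are shown because the partners differ by single bases in the seed, which is in capitals (bases 2 to 8, 5′ to 3′, from RefSeq, build GRCm38.p6). Of the 1915 entries, 1623 had a sequence in that table, the 3 members among them.
miR-182-5p: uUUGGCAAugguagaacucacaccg
miR-183-5p: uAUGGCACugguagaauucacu
miR-96-5p: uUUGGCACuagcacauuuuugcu
miR-1271-5p: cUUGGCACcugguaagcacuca

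Differences are written as the base of the miRNA named first, the position counted from 1 at the 5′ end, and the base of the miRNA named second. From miR-182-5p to miR-96-5p the seed holds the single change A8C. From miR-183-5p to miR-96-5p it holds A2U, and from miR-182-5p to miR-183-5p both U2A and A8C. miR-182-5p and miR-96-5p thus share bases 2 to 7, and no other entry with a sequence shared bases 2 to 7 or 2 to 8 with a member. miR-1271-5p, shown because it has the whole seed of miR-96-5p, is in the RefSeq table and is not among the entries analysed here. Over the whole length, seed included and with no gaps, the closest pair was miR-182-5p and miR-183-5p, with the same base at 18 of 22 positions. The number was 13 of 22 for miR-183-5p and miR-96-5p and 12 of 23 for miR-182-5p and miR-96-5p. Outside the seed miR-182-5p and miR-183-5p were the same at 13 of 15 positions. The longest run of bases shared by any pair of members was 8.

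The hairpins lie on the minus strand of chromosome 6 within 3820 bases. Mir183 is at chr6:30169668-30169737, Mir96 at chr6:30169446-30169551 and Mir182 at chr6:30165918-30165992, in that order along the transcript. Mir183 and Mir96 are 116 bases apart, and 3453 bases separate Mir96 from Mir182. In GENCODE M21 no gene other than the hairpins themselves overlaps them. RefSeq places all of them inside Mirc35hg, a long non-coding RNA gene on the same strand, also named linc_miR96, at chr6:30158640-30174125. The hairpins are shown with both mature arms in capitals, because the arms were counted as separate entries.
Mir183: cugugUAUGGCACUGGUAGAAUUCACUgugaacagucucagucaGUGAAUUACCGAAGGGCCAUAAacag
Mir96: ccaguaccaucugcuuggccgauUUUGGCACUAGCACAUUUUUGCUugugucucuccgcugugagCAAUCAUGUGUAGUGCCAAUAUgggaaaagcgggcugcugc
Mir182: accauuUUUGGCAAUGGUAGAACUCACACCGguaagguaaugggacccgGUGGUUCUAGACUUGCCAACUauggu

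The libraries held 45677 miRNA reads for B16 exosomes, 4495956 for JB6 exosomes and 7925726 for B16 cells. No count from 1 to 9 occurred in any file, so a listed 0 can hide up to 9 reads. On the RPM scale used below, where each library's miRNA reads are set to the same total, 9 reads equal 197 RPM for B16 exosomes, 2.002 RPM for JB6 exosomes and 1.14 RPM for B16 cells. Of 1915 entries, 149, 389 and 559 were listed above 0. Intervals are exact 95% binomial intervals and cover counting error only, not the spread between libraries. These reads carried no molecular identifiers, so PCR copies cannot be told from separate molecules. The intervals may therefore be too narrow even for counting error. The melanocyte miRNA miR-211-5p had 83 reads in B16 exosomes, a listed 0 in JB6 exosomes and 21080 reads in B16 cells. The 4 miRNAs taken as melanocyte markers summed to 5780, 782 and 5742 RPM, with 2, 2 and 3 of 4 listed. Most of these reads were miR-146a-5p, with 181 of 264, 3504 of 3518 and 24373 of 45513. The JB6 exosome sum is thus almost wholly miR-146a-5p and cannot be read as a level of miR-211-5p. miR-204-5p had a listed 0, 14 and 60 reads, while miR-137-3p was at 0 throughout. Summed epithelial markers (5 miRNAs of the miR-200 family, miR-203-3p and miR-205-5p) were at 0, 7.78 and 24.9 RPM, with 0, 2 and 4 of 7 listed, and miR-141-3p, miR-429-3p and miR-205-5p were at 0 in all 3 libraries. Summed mesenchymal markers stood at 80566, 34583 and 38335 RPM, with 4, 5 and 4 of 5 listed. Most of these reads were miR-143-3p in each library, with 3478 of 3680, 144649 of 155482 and 285130 of 303834. miR-214-3p was listed only in JB6 exosomes, with 890 reads. Erythroid markers stood at 0, 7478 and 20.9 RPM, with 0, 3 and 2 of 3 listed. The markers miR-9-5p, miR-124-3p and miR-204-5p of neural tissue stood at 11297, 70.3 and 19573 RPM, with 1, 2 and 2 of 3 listed. Nearly all of these reads were miR-9-5p, with 516 of 516, 302 of 316 and 155066 of 155126, and miR-124-3p was at 0 throughout. Liver markers stood at 963, 252480 and 686 RPM, with 2, 3 and 3 of 3 listed, and in JB6 exosomes miR-122-5p gave 1129522 of the 1135141 reads. Of the other liver markers, miR-192-5p stood at 438, 1222 and 523 RPM and miR-194-5p at a listed 0, 28.2 and 110 RPM. The part of these differences in the cluster's shares was not tested.

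miR-182-5p, which targets FOXO transcription factors, was listed in all 3 libraries. It had 11 reads in B16 exosomes, 28 in JB6 exosomes and 655 in B16 cells. These counts were 241 RPM (120 to 431), 6.23 RPM (4.14 to 9.001) and 82.6 RPM (76.4 to 89.2). By miRNA totals its share was thus highest in the B16 exosomes and lowest in the JB6 exosomes. No level under 219 RPM could be listed in B16 exosomes, so the highest place there followed from the listing. By the authors' totals its share was highest in B16 cells, with 13.0, 4.98 and 75.1 RPM in the same order of libraries. Its rank among listed entries was 142 of 149, 286 of 389 and 193 of 559, which puts it at the lower end of the list in the shallow exosome library.

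miR-183-5p, a regulator of the integrin β1 and ezrin genes in other tissues, had a listed 0 in B16 exosomes, 70 reads in JB6 exosomes and 447 in B16 cells. The last 2 counts were 15.6 RPM (12.1 to 19.7) and 56.4 RPM (51.3 to 61.9), and its ranks were 217 of 389 and 217 of 559. It was the most abundant member of the cluster in JB6 exosomes and the second in B16 cells.

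miR-96-5p, the member whose seed mutations cause hearing loss, was listed only in B16 cells, with 65 reads. This was 8.20 RPM (6.33 to 10.5), rank 338 of 559. Its listed 0 allowed up to 197 RPM in B16 exosomes and up to 2.002 RPM in JB6 exosomes.

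**Figure D1:**
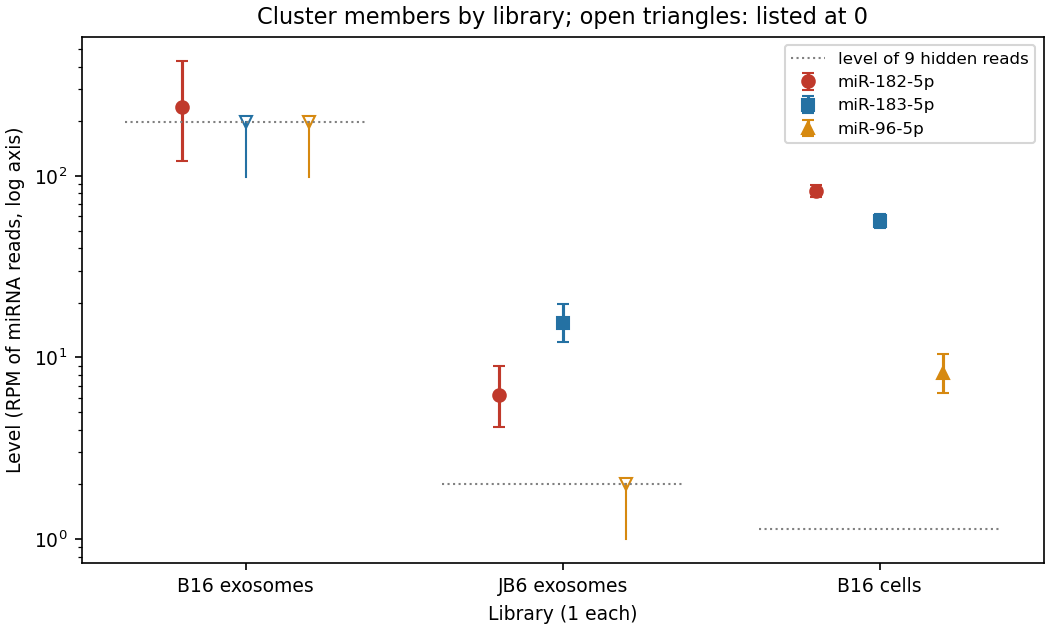
Level of each cluster member (RPM of miRNA reads, log axis) in the 1 library of B16 exosomes, of JB6 exosomes and of B16 cells, with exact 95% counting intervals; open triangles stand at the level of 9 reads for a listed 0. miR-182-5p leads in B16 cells and miR-183-5p in JB6 exosomes, while in B16 exosomes the level of 9 reads lies at 197 RPM, above every member's level in the other libraries.

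The opposite arms of the hairpins were nearly unrepresented. miR-183-3p had 13 reads in B16 cells and a listed 0 in both exosome libraries, and miR-182-3p and miR-96-3p were listed at 0 in all 3. In B16 cells miR-183-5p outnumbered miR-183-3p 34.4-fold (19.9 to 65.1). With 9 reads taken for the listed 0, miR-182-5p outnumbered its opposite arm at least 72.8-fold and miR-96-5p at least 7.22-fold, where the bound of miR-96-5p was limited by its 65 reads.

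Within B16 cells the partners were unequal. miR-182-5p made up 56.1% (53.2 to 59.0) of the 1167 reads of the cluster, miR-183-5p 38.3% (35.5 to 41.2) and miR-96-5p 5.57% (4.32 to 7.04). The intervals of the 3 members did not overlap, in the order miR-182-5p, miR-183-5p, miR-96-5p. In reads, miR-182-5p exceeded miR-183-5p 1.47-fold (1.30 to 1.66), and miR-183-5p exceeded miR-96-5p 6.88-fold (5.29 to 9.06), although Mir183 and Mir96 are the closest neighbours.

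Within JB6 exosomes the order of the leading partners was the other way round. miR-183-5p held 71.4% (61.4 to 80.1) of the 98 listed reads and miR-182-5p 28.6% (19.9 to 38.6), a 2.50-fold excess of miR-183-5p (1.59 to 4.03). With 9 reads for miR-96-5p the shares were 65.4% for miR-183-5p, 26.2% for miR-182-5p and at most 8.41% for miR-96-5p. In B16 exosomes the 11 listed reads were all miR-182-5p, but 9 hidden reads for each partner would lower its share to 37.9%, so the make-up of the cluster could not be resolved there.

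B16 exosomes were set against B16 cells to ask how far the vesicles carry the cluster as their parent cells do. miR-182-5p was 2.91-fold higher by share in B16 exosomes (1.45 to 5.25), on the 11 exosome reads and 655 cell reads given above. It met the size rule, a ratio of at least 2-fold with an interval that excluded 1. So did 8.53% of the 422 entries with 30 or more reads over these libraries in the same direction, while 7.82% were called lower. Of the 144 entries listed in both libraries 24.3% were called higher. The smallest ratio that could be listed for miR-182-5p was 2.65, so the size part of its call followed from the listing. miR-183-5p and miR-96-5p could not be resolved, since the exosome library listed both at 0. Their ratios could be at most 3.49 and 24.03 with 9 reads in the exosomes, bounds that leave out counting error. In bulk RNA, fewer cells or vesicles that hold a miRNA and fewer copies in each cannot be told apart.

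The depth of the B16 exosome library set what could be seen here. At their share in the cells, 3.77 reads of miR-182-5p, 2.58 of miR-183-5p and 0.375 of miR-96-5p would be predicted in the exosomes, all under the 10 reads needed for a listing. miR-182-5p could therefore be listed only at a ratio of 2.65 or more, miR-183-5p at 3.88 or more and miR-96-5p at 26.7 or more, and a listed ratio had to be a high one. A library of 121003 miRNA reads would predict 10 reads of miR-182-5p at its share in the cells, and one of 1219342 would do so for miR-96-5p.

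Entries with like levels in the cells showed the same limit. Of 79 other entries within 2-fold of miR-182-5p in B16 cells, 7 were listed in B16 exosomes, with ratios from 2.35 to 20.8. All 7 were called higher, and 5 of the 7 ratios were above that of miR-182-5p. Of 85 entries at the level of miR-183-5p 8 were listed, and of 118 at that of miR-96-5p 4 were. The listing of miR-182-5p was thus shared by few entries of its level, and the listed 0 of its partners was the usual outcome.

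The scaling decided the direction of the miR-182-5p ratio. TMM factors lowered every ratio of this comparison by 1.02 on the log2 scale and left miR-182-5p at 1.44 (0.714 to 2.59), short of the rule. The totals behind the authors' RPM values, which the summed miRNA counts left 94.6% short in B16 exosomes and 9.12% short in B16 cells, turned the ratio to 0.173 (0.0858 to 0.311). On the authors' scale miR-182-5p had 13.0 RPM in B16 exosomes and 75.1 RPM in B16 cells, and miR-183-5p, with a ratio of at most 0.207, then met the rule as lower.

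**Figure D2:**
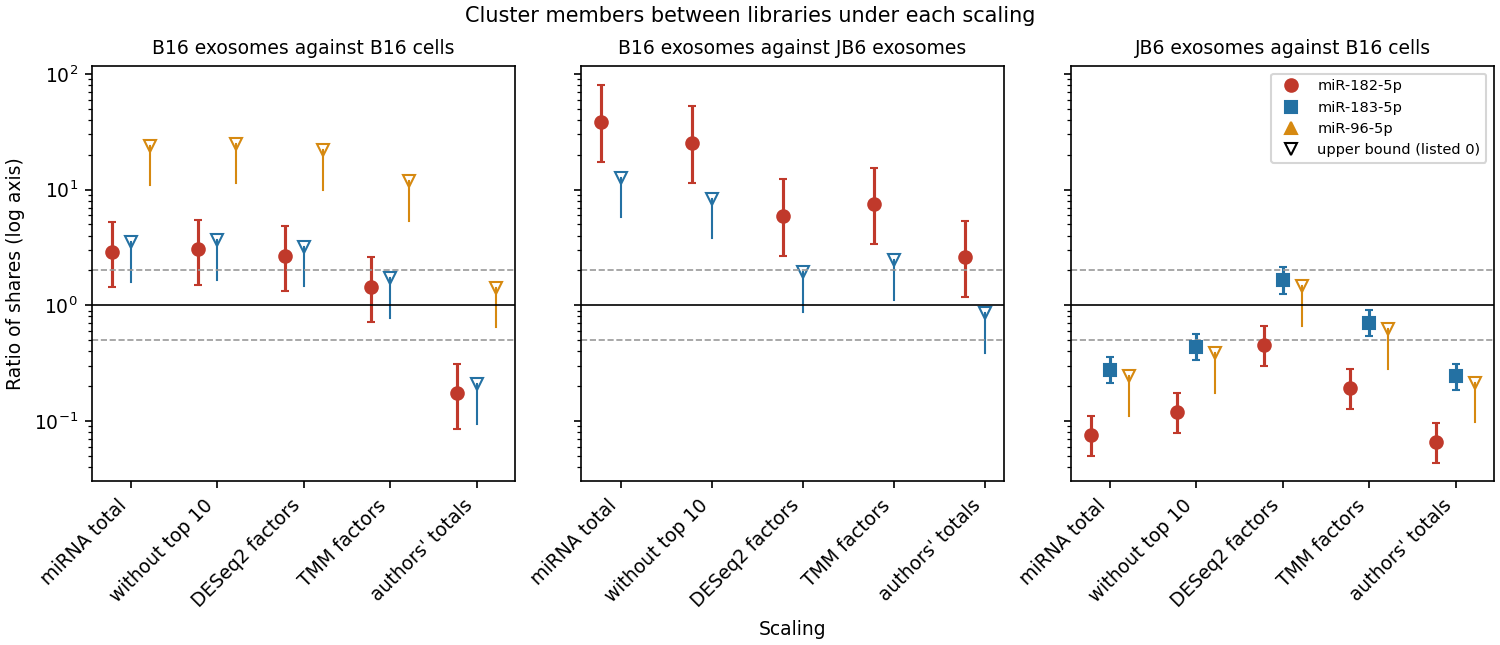
Ratio of shares of each cluster member (log axis) in the 3 comparisons under 5 scalings, with exact 95% counting intervals; open triangles are upper bounds where the first-named library lists 0, and dashed lines mark 2-fold either way. For miR-182-5p the ratio of B16 exosomes to B16 cells is 2.91 by miRNA totals and 0.173 by the authors' totals. Its ratio for JB6 exosomes against B16 cells stays below 1 at every scaling. Its ratio of B16 exosomes to JB6 exosomes stays above 1, but there any listing required a ratio above 2 at each scaling.

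B16 exosomes were also set against JB6 exosomes, melanoma vesicles against those of a normal skin line. miR-182-5p was 38.7-fold higher in B16 exosomes (17.4 to 80.1), with 241 RPM against 6.23 RPM in JB6 exosomes. It was called higher, as were 31.3% of 300 entries with 30 or more reads (11.7% were lower) and 67.2% of the 131 listed in both libraries. The median ratio of those 131 entries was 6.14, so a higher share in B16 exosomes was common under this scaling. At its JB6 share only 0.284 reads would be predicted in B16 exosomes, so any listing required a ratio of at least 35.2. The ratio was 7.49 under TMM factors, 5.93 under DESeq2 size factors, 25.4 without the 10 most abundant miRNAs and 2.61 under the authors' totals (1.17 to 5.40). The smallest listable ratio is itself above 2-fold under each of these scalings, so the size part of the call followed from the listing and says nothing of its stability. The intervals come from the same listed reads, so they are no separate evidence for the call. Of 117 other entries within 2-fold of its JB6 level, 18 were listed in B16 exosomes, and 15 of these had a higher ratio.

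miR-183-5p had a listed 0 in B16 exosomes and 70 reads in JB6 exosomes. Its ratio could be at most 12.7 and was not resolved, because only 0.711 reads were predicted. miR-96-5p was listed at 0 in both exosome libraries, and no ratio was formed. The cluster partners were thus open to comparison between the exosome libraries only through miR-182-5p.

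JB6 exosomes were set against B16 cells because these deep libraries could list the partners side by side. The comparison also sets vesicles against whole cells, which cannot be told apart from line, strain and disease state. All 3 members were lower in JB6 exosomes, by 13.3-fold for miR-182-5p (9.10 to 20.1), 3.62-fold for miR-183-5p (2.81 to 4.73) and at least 4.10-fold for miR-96-5p, taking 9 reads for its listed 0. With counting error the limit of the miR-96-5p fold nearest to 1 was 2.03. Lower calls were the rule in this comparison, at 60.7% of 501 entries, against 26.1% called higher, and the 305 entries listed in both libraries were lower in 54.8% of cases, with a median ratio of 0.361. The ratio of miR-183-5p, at 0.276 (0.211 to 0.356), lay just under that median, and that of miR-182-5p, at 0.0754 (0.0497 to 0.110), well under it.

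Entries of like level in the cells moved the same way. Of 79 entries within 2-fold of miR-182-5p in B16 cells 69 were lower in JB6 exosomes, of 85 at the level of miR-183-5p 72 were, and of 118 at that of miR-96-5p 80 were. The lower calls were 87.3%, 84.7% and 67.8% of the like-level entries, so a lower call was the usual one at each member's level. For miR-182-5p 47 of the 79 had a still lower ratio or a listed 0, and for miR-183-5p 67 of the 85 did. The like-level entries listed in JB6 exosomes had a median ratio of 0.104 for miR-182-5p and 0.196 for miR-183-5p. The ratio of miR-183-5p, at 0.276, thus lay above the median of its level, and that of miR-182-5p, at 0.0754, below.

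The calls differed between the partners when the scaling changed. miR-182-5p remained lower under TMM factors at a ratio of 0.192, under DESeq2 size factors at 0.450 (0.297 to 0.657), without the most abundant miRNAs at 0.120 and under the authors' totals at 0.0663. miR-183-5p lost its call under TMM factors, at 0.703 (0.539 to 0.906), and its ratio rose above 1 under DESeq2 size factors, at 1.65 (1.26 to 2.13). miR-96-5p was no longer resolved under either, with upper bounds of 0.622 and 1.46. TMM factors moved every ratio of this comparison by 1.35 on the log2 scale and DESeq2 size factors by 2.58.

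**Figure D3:**
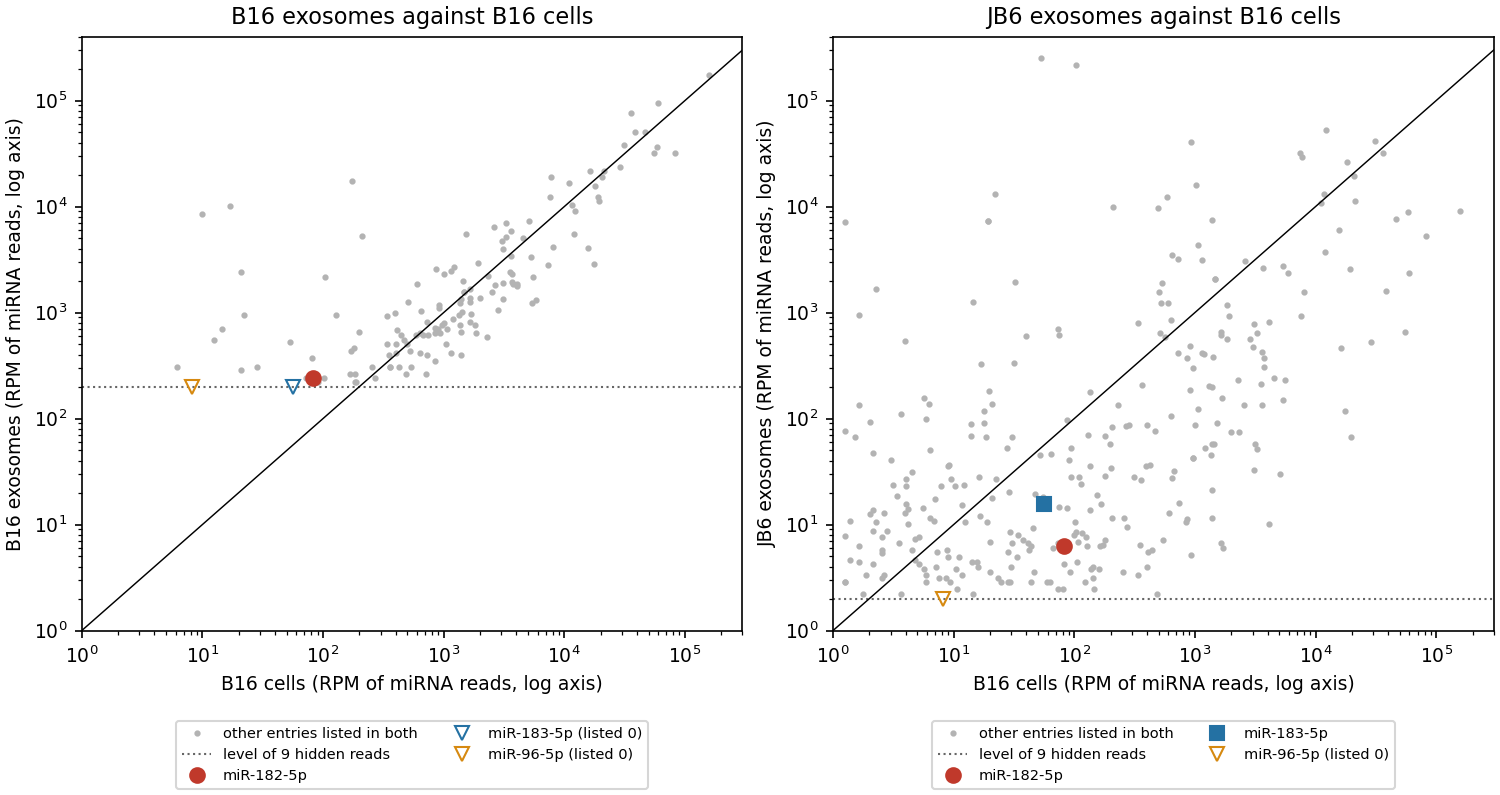
Level in B16 exosomes (left) and in JB6 exosomes (right) against the level in B16 cells, in RPM of miRNA reads on log axes, for entries listed in both; coloured points are the cluster members, open triangles a listed 0 drawn at 9 reads, and the diagonal marks equal shares. miR-182-5p, at 241 RPM in B16 exosomes, lies just above the smallest level that can be listed there, 219 RPM, and in JB6 exosomes miR-182-5p and miR-183-5p lie below the diagonal among many other entries.

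The ratio of 2 partners inside a library does not depend on the library total or on a scaling factor. miR-182-5p over miR-183-5p was 0.400 in JB6 exosomes (0.248 to 0.628) and 1.47 in B16 cells (1.30 to 1.66), and these intervals did not overlap. The partner ratio was 3.66-fold lower in JB6 exosomes (2.29 to 5.99). Such a shift was common among clustered hairpins. Of 61 pairs of hairpins in the RefSeq table within 10 kb on 1 strand and with all 4 counts listed, 63.9% differed at least 2-fold with an interval that excluded 1, and 33 of the 61, the miR-182-5p and miR-183-5p pair included, differed at least as far. The median fold of the 61 pairs, in either direction, was 4.03. The pairs overlap, since a miRNA of a larger cluster enters several of them, as miR-92a-3p does. These figures therefore do not count separate clusters. miR-143-3p and miR-145a-5p are not among these pairs.

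In B16 exosomes miR-182-5p over miR-183-5p was at least 1.22, the ratio at 9 reads of miR-183-5p. Against the JB6 exosome ratio this was at least 3.06-fold higher, with a counting limit of 1.02 nearest to 1. With miR-183-5p set to 9 reads, any listing of miR-182-5p, at 10 reads or more, put this bound above 2-fold. That it passed 2-fold thus followed from the listing. Among clustered pairs with all 4 counts listed, a set without this pair, 74.1% of 27 changed between the exosome libraries. Against the B16 cell ratio the bound of 1.22 lay below 1.47, so the difference was not resolved, and 28.6% of 28 pairs changed between B16 exosomes and B16 cells. The ratio of miR-183-5p to miR-96-5p was at least 7.78 in JB6 exosomes and 6.88 in B16 cells, and that of miR-182-5p to miR-96-5p at least 3.11 and 10.1, neither resolved as a difference.

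3 other clusters gave a scale for these values. For miR-221-3p over miR-222-3p, the partner ratio was 4.04-fold lower in JB6 exosomes (3.65 to 4.49), at 1.15 in JB6 exosomes and 4.64 in B16 cells, a fold whose interval overlaps that of miR-182-5p and miR-183-5p. For miR-143-3p over miR-145a-5p it was 67.9-fold higher (51.5 to 91.2), at 2836 in JB6 exosomes and 41.8 in B16 cells. For miR-191-5p over miR-425-5p it was 1.94-fold higher (1.61 to 2.36), at 11.1 in JB6 exosomes and 5.74 in B16 cells, short of the size rule. The miR-182-5p and miR-183-5p fold lay between those of these clusters.

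**Figure D4:**
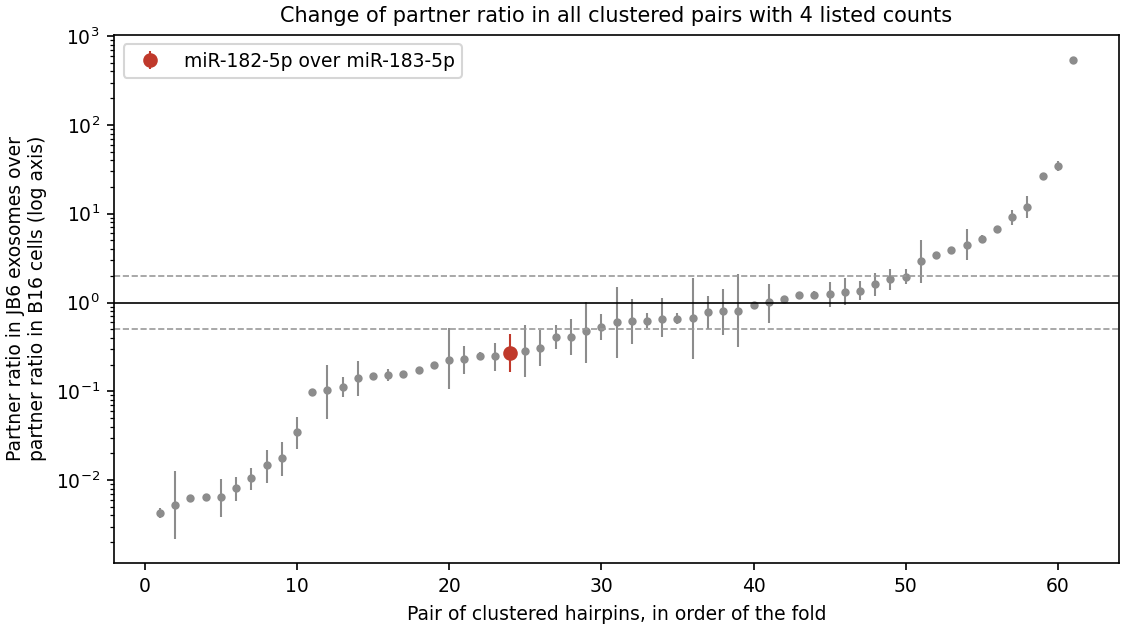
Partner ratio in JB6 exosomes over that in B16 cells (log axis) for the 61 pairs of clustered hairpins in the RefSeq table with all 4 counts listed, in order, with exact 95% counting intervals; dashed lines mark 2-fold either way. The miR-182-5p over miR-183-5p pair, at 0.273, lies inside the range of the other pairs.

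The entries whose pattern was most like that of miR-182-5p were taken from the 132 listed in all 3 libraries, by the distance between their log2 ratios of B16 exosomes and of JB6 exosomes to B16 cells. They were miR-143-5p at a distance of 0.34, miR-342-3p at 0.35 and miR-184-3p at 0.47. miR-143-5p had 11 reads in B16 exosomes, 38 in JB6 exosomes and 812 in B16 cells, miR-342-3p had 45, 161 and 3136, and miR-184-3p had 252, 406 and 12170. The distances leave out counting error, and the miR-182-5p ratio of B16 exosomes to B16 cells had an interval of 1.45 to 5.25. Which entries are nearest, and in what order, is therefore not resolved. With 3 libraries the likeness is a description of levels and no measure of covariation. miR-183-5p and miR-96-5p were not listed in all 3 libraries, so no like entries were named for them.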

How the data were processed

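The deposited files give, per the file headers, a count of reads for each mature miRNA, which is not normalized, and a value in RPM. The authors derived the RPM from a total that exceeds the summed miRNA counts, and no source used here says what it holds. bcl2fastq, BWA and the build mm10 are named in the submitters' processing notes, while versions, miRNA annotation, strand use and the handling of multiply matching reads are not given in the sources used. Each library's miRNA reads were summed, and shares were compared as ratios with exact conditional binomial 95% intervals (scipy 1.17.1). With 1 library per group there was no test across libraries. A call required 30 or more reads over the pair, a ratio of at least 2-fold and an interval that excluded 1. A listed 0 was set to 9 reads and gives a bound. Partner ratios were compared as odds ratios with exact conditional intervals, with pairs of hairpins in the RefSeq table within 10 kb on 1 strand as background, each represented by the arm with more reads summed over the 3 libraries. Scaling factors came from edgeR 4.0.16 and DESeq2 1.42.0. Alternatives were other totals, other minimums, a stricter interval and summed arms. The code was tested on simulated data. Coordinates and sequences are those of GRCm38, the assembly behind mm10. The entries named were the members, their opposite arms, seed relatives, marker lists, 3 comparison clusters and the 3 entries nearest in pattern, and the members and lists were chosen with earlier results of these data known. Like-level entries were added after the data were seen.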

Additional observations from a re-analysis of the deposited data

How the results depend on the processing

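In B16 exosomes against B16 cells, the miR-182-5p ratio of 2.91 was 1.44 with TMM factors and 0.173 with the authors' totals, where the miR-183-5p bound of 0.207 became a lower call, and it missed an interval bound of 2-fold at its unchanged 2.91. In JB6 exosomes against B16 cells, the miR-183-5p ratio of 0.276 was 0.703 with TMM and 1.65 with DESeq2 factors, and the miR-96-5p bound of 0.244 was 0.622 and 1.46. The bound of 3.06 on miR-182-5p over miR-183-5p between the exosome libraries missed the interval bound of 2-fold. Each other member ratio, partner ratio and make-up value tried kept its call, also with both arms summed. For the higher call of miR-182-5p against JB6 exosomes the size part followed from the listing, so keeping it says nothing of its stability. The same holds for its higher call against B16 cells where that was kept. There the smallest listable ratios were 2.43 with DESeq2 factors and 2.76 without the 10 most abundant miRNAs. The make-up in B16 exosomes stayed unresolved. The causes of the changes were not tested.

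The counts over all entries moved more. In B16 exosomes against B16 cells, 36 higher and 33 lower became 16 and 93 with TMM, 9 and 257 with the authors' totals and 23 and 14 with the interval bound of 2-fold. In B16 exosomes against JB6 exosomes, 94 higher and 35 lower became 61 and 97 with TMM, 57 and 109 with DESeq2, and 40 and 153 with the authors' totals. In JB6 exosomes against B16 cells, 131 higher and 304 lower became 202 lower with TMM and 204 higher and 134 lower with DESeq2. Minimums of 10, 100 or no reads moved no count by over 1.5 times. Clustered pairs that changed numbered 8 of 28, 20 of 27 and 39 of 61 in these comparisons. With only miRNAs of 1 genomic locus, an alternative added after the data were seen, they numbered 3 of 13, 11 of 12 and 23 of 40, and with both arms summed 59 of 76 changed in the last. Depth limits the B16 exosome library most, where a share under 219 RPM could not be listed.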
